A study of Homo sapiens with 9 samples.

Results

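DPH2, AK6, TAF6, UQCRC2, DTX3 and CDK5RAP1 are 6 genes of unrelated pathways whose transcripts were higher after an siRNA against an MTDH isoform than after an siRNA against wild-type MTDH. They were chosen from 12239 genes with a measured probe because this difference was among the largest and because no known pathway joined them, and the comparisons here ask which of the siRNAs moved each gene away from control. All probes that the platform annotation gives to the 6 symbols were taken, 11 in all, and 11 of 11 passed the filter on dim probes. The cells were MDA-MB-231, an estrogen receptor-negative line from a breast adenocarcinoma, and total RNA was measured as biotin-labelled cRNA on 1-colour Illumina arrays. The control cells are called untreated in the series' design text, and the other groups received 200 pmol of an siRNA against wild-type MTDH (the WT knockdown) or against the isoform (the isoform knockdown) for 24 h, with 3 samples labelled in each group. MTDH encodes metadherin, which has been linked to metastasis. All groups shared the line and its serum-containing medium.

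Several limits of the samples touch every value. At 47231 of 47231 probes, control replicate 2 held exactly the average of the other controls, and it was left out, so 2 controls (replicates 1 and 3) and 3 arrays of each knockdown were compared. The control is not described as transfected and no group given a non-targeting siRNA was analysed here, so transfection and the loss of MTDH cannot be told apart in a comparison with control. The labels do not place the replicates in separate cultures, so a p-value here reflects the scatter of these arrays alone, and that scatter may be technical. In bulk RNA, fewer cells expressing a gene and less RNA per cell cannot be told apart. The array detected 20295 to 21761 probes per sample.

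MTDH, the gene aimed at, fell after either siRNA. The single MTDH probe read 10.71 and 10.69 on the log2 scale in the controls, 9.59, 9.79 and 9.90 in the WT knockdown, and 9.87, 9.75 and 9.68 in the isoform knockdown. Every knockdown array lay below both controls, and the knockdown groups overlapped. The log2 difference from control was -0.94 ± 0.11 (SE) for the WT siRNA (limma adjusted p = 0.000123) and -0.93 ± 0.11 for the isoform siRNA (limma adjusted p = 0.000285). The knockdowns differed by 0.00 ± 0.10 (limma adjusted p = 0.977), so this probe tells treated from untreated samples but not the siRNAs from each other. Of markers of this mesenchymal-like line, VIM, CD44, AXL, CAV1 and PLAUR were measured and SPARC was not. Of luminal markers, KRT8, KRT18, EPCAM, ELF3 and GATA3 were measured, while the defining ESR1 and CDH1 did not pass the filter. Of leukocyte markers, CD14 and LYZ were measured and PTPRC, CD3E and HBB were not, and of fibroblast markers, COL1A1, COL1A2, DCN and LUM were measured and COL3A1 and PDGFRA were not. The log2 of the summed level of the 5 line markers was 14.99 to 15.08 in controls. It was 14.66 to 14.71 in the WT knockdown and 14.87 to 14.93 in the isoform knockdown. Within this list PLAUR was called higher and CD44 lower with both siRNAs, and CAV1 lower with the WT siRNA alone. The same sum for the 5 luminal markers was 10.70 to 10.75, 11.06 to 11.23 and 11.04 to 11.15. Its members split: KRT8 and ELF3 were called higher with both siRNAs, EPCAM lower with both (-0.65 and -0.58), and KRT18 and GATA3 did not pass. For the 4 fibroblast markers the sum was 6.82 to 6.83, 7.00 to 7.19 and 6.92 to 7.15. These probes were dim, with COL1A2 detected on 2 of the 8 arrays and LUM and DCN on 5 each. COL1A2 was called lower with both siRNAs, COL1A1 higher with the WT siRNA and LUM higher with the isoform siRNA. The leukocyte pair summed to 7.67 to 8.03, 8.03 to 8.25 and 8.10 to 8.20. Of the pair, CD14 was called higher with the WT siRNA alone (0.39, limma adjusted p = 0.0267) and LYZ with neither siRNA. The part of these shifts in the results was not tested.

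An siRNA enters the Argonaute complex and directs the cutting of the transcript it matches along its length. Through its seed, the bases near the 5′ end of the guide strand, it can also lower transcripts that it matches only in part, and such effects are specific to one siRNA sequence rather than to the gene aimed at. A gene that falls with one siRNA and stays near control with another against the same locus is for that reason commonly listed as an off-target candidate. The labels and files used here hold no siRNA sequence, so a match between either siRNA and these transcripts was not tested. The siRNAs also aim at different MTDH transcripts, and an effect of the transcript lost and an effect of the siRNA sequence cannot be told apart here.

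The chosen genes do separate jobs. DPH2 works with DPH1 in the first step of making diphthamide, the modified histidine of elongation factor EEF2 that diphtheria toxin attacks. AK6 is a nuclear adenylate kinase linked to maturation of the small ribosomal subunit, and it shares its locus with TAF9. TAF6 is a histone-fold subunit of TFIID, the complex that binds core promoters for RNA polymerase II. UQCRC2 is a core subunit of respiratory complex III, DTX3 is a RING-type ubiquitin ligase of the Deltex family, and CDK5RAP1 adds a methylthio group to mitochondrial tRNAs next to the anticodon and was first found as a binding partner of the CDK5 activator.

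The promoters of DPH2, AK6 and UQCRC2 are shown because these genes stand for the different patterns below: opposite calls under the siRNAs, a fall with the WT siRNA alone called, and falls of unequal size with both. Each is the RefSeq window of build GRCh38.p14 from 250 bases before to 50 bases after a transcription start, written 5′ to 3′ on the gene's strand. Capitals mark matches, on either strand, to the TATA box TATAAA, the GC box GGGCGG, the CCAAT box CCAAT, the ETS core CCGGAAG or the E-box CACGTG.
DPH2, chr1:43969760-43970059, + strand: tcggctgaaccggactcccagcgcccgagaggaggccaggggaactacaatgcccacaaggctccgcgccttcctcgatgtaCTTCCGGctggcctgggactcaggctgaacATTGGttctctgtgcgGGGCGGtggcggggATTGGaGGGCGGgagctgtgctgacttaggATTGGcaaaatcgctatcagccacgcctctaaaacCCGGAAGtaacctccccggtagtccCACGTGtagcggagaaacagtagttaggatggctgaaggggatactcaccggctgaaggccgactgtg
AK6, chr5:69369775-69370074, - strand: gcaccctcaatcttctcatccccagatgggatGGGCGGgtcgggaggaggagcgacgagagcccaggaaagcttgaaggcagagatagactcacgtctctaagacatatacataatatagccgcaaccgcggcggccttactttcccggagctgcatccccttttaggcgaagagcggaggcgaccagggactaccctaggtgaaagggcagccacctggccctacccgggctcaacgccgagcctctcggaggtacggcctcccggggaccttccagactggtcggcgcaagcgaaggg
UQCRC2, chr16:21953111-21953410, + strand: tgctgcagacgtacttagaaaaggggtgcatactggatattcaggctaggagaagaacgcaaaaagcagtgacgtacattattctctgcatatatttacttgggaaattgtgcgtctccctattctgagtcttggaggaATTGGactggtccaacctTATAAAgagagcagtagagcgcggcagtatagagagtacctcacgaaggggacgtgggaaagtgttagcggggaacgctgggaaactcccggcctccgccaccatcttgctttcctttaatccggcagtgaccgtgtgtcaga

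The windows shown differed in their matches, with the GC box found in DPH2 and AK6 and the CCAAT box in DPH2 and UQCRC2. The DPH2 window held 2 GC boxes, 3 CCAAT boxes read as ATTGG, 2 ETS cores and 1 E-box, at 60.7% G and C. The AK6 window held 1 GC box at 61.7%, and the same window is listed for TAF9. The UQCRC2 window held 1 TATA box and 1 CCAAT box at 49.3%. Among 34943 promoter windows of this length, 11.6% held a TATA box, 44.9% a GC box, 34.6% a CCAAT box, 10.2% an ETS core and 7.2% an E-box, and the median G and C content was 58.7%.  Of the other members, TAF6 had 1 GC box, and CDK5RAP1 had 1 TATA box and 1 CCAAT box. The TATAAA matches began at position -93 from the start in UQCRC2 and -204 in CDK5RAP1. AK6 and CDK5RAP1 have 2 listed windows each and TAF6 has 3, of which a single window per gene was read. That of TAF6 was not at the outermost start. DTX3 is named only. These matches describe letters in the windows, and binding was not measured.

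The values that chose the genes are given as a description. Genes were ranked by isoform minus WT knockdown among the 2303 that were higher after the isoform siRNA, past the threshold (limma adjusted p under 0.05) and without overlap between the groups. DPH2 stood at rank 3 with a log2 difference of 1.64, AK6 at rank 5 with 1.60, TAF6 at rank 6 with 1.57, UQCRC2 at rank 7 with 1.57, DTX3 at rank 8 with 1.49 and CDK5RAP1 at rank 9 with 1.47. The other ranks up to 10 were held by the small nucleolar RNA SNORD21 (rank 1, 3.04) and by AKR1C2 (rank 2, 1.79), AKR1B10 (rank 4, 1.64) and AKR1C4 (rank 10, 1.44), which encode aldo-keto reductases. Just outside the largest 10 stood MR1 (1.39), which presents metabolites to MAIT cells, and SMARCA1 (1.38), a chromatin remodelling ATPase. The values run on without a gap from CDK5RAP1 to these. Across all probes, 32.9% passed the threshold in this comparison, 17.3% as higher, and nothing is read from the members passing it.

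**Figure D1:**
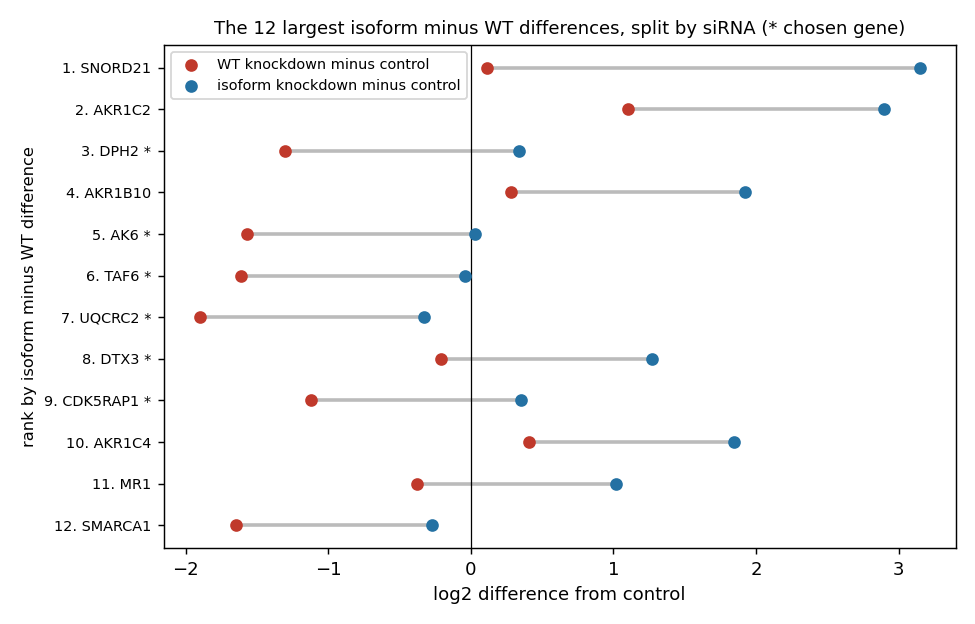
The 12 genes with the largest isoform minus WT knockdown difference, in rank order, each with its log2 difference from control in the WT knockdown (red) and the isoform knockdown (blue); asterisks mark the chosen genes and the vertical line is the control level. For DPH2, AK6, TAF6, UQCRC2 and CDK5RAP1 the red point is the farther from control (-1.90 to -1.12), while for DTX3 and the unmarked genes other than SMARCA1 the blue point is (1.02 to 3.15).

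Set against control, 5 of the 6 genes fell after the WT siRNA and 1, DTX3, did not pass, with 0 higher by limma, also at an unadjusted p under 0.05. The share of all probes called lower in this comparison was 27.0%, and 24.5% were called higher. By probe, 10 of 11 were called lower, and at 11 of 11 every WT array lay below both controls, against 35.2% of all probes. After the isoform siRNA, DPH2, DTX3 and CDK5RAP1 were called higher (19.1% of all probes), UQCRC2 lower (21.0%), and AK6 and TAF6 did not pass. These comparisons share the controls with each other and the knockdown arrays with the difference that chose the genes, so opposite positions of the siRNAs are partly built into the choice. The mean of both knockdowns minus control is given for each gene below, since its array scatter is uncorrelated with that difference. It is not free of the choice, however. Over all probes the WT differences from control spread wider (SD 0.62) than the isoform differences (SD 0.47). A choice by a high isoform minus WT value therefore favours genes with a low mean of both. Under scaling of each array by its median in place of quantile normalization, the median of all probes moved to -0.19 in the WT and -0.14 in the isoform comparison, and the calls split into 2849 higher and 7765 lower (WT) and 2103 higher and 5753 lower (isoform), against 5500 and 6076, and 4285 and 4716.

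**Figure D2:**
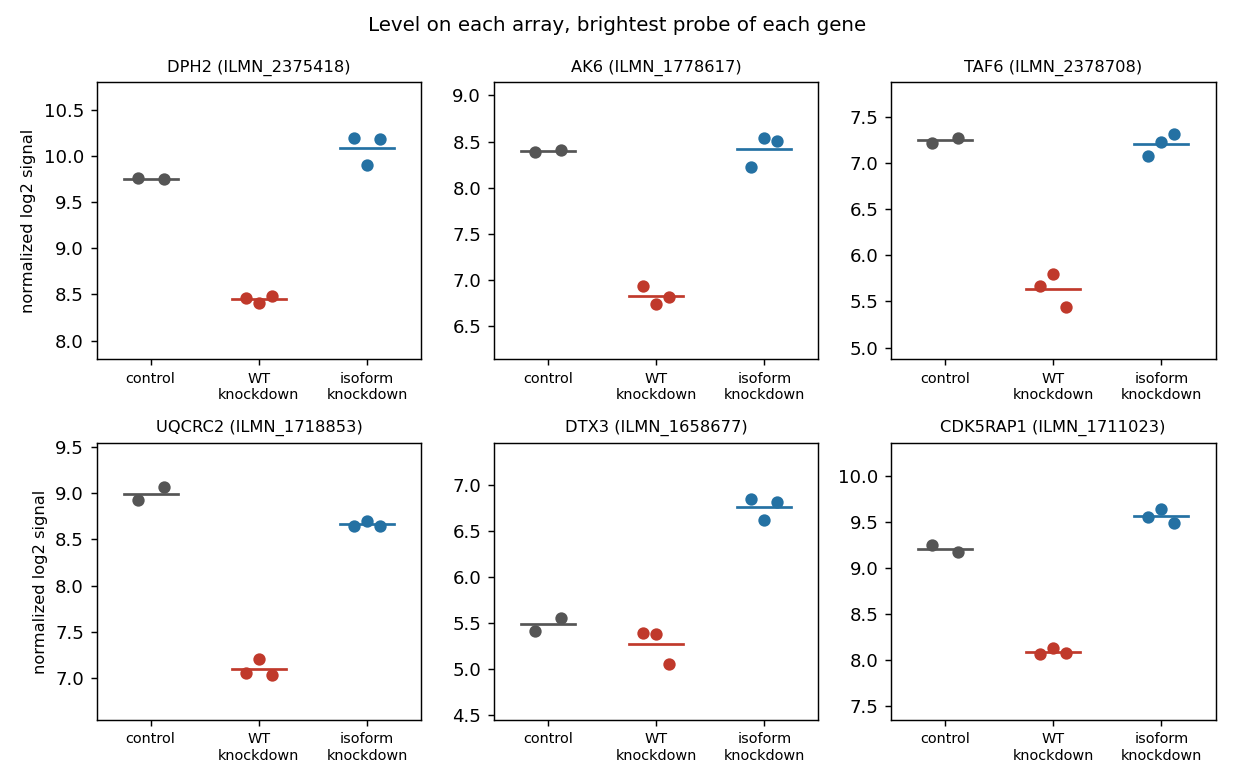
Normalized log2 level of the brightest probe of each gene on every array used, by group, with points for arrays and bars for group means. The WT knockdown points lie below the controls in all 6 panels, at a mean log2 difference of -1.12 or lower except for DTX3 (-0.21), and the isoform points lie near or above the controls except for UQCRC2.

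UQCRC2 had the deepest fall of the brightest probes. Its single probe, ILMN_1718853, read 8.93 and 9.06 in the controls, 7.05, 7.21 and 7.03 in the WT knockdown, and 8.64, 8.70 and 8.64 in the isoform knockdown. All WT arrays lay far below the rest, and the isoform arrays formed a tight group just under the controls with no overlap. The WT difference was -1.90 ± 0.10 (SE; limma adjusted p = 1.34e-06), which leaves 26.8% of the control level and is the 13th largest fall of 12239 genes. Its size varied with the processing, from -2.21 to -1.52 over 18 alternatives, with -1.62 in the authors' deposited log2 table. The isoform difference was -0.33 ± 0.10 (limma adjusted p = 0.0227), or 79.5% of control. Among the brightest probes, that of UQCRC2 alone was thus called lower with both siRNAs, by unequal amounts. The fall after the isoform siRNA missed the threshold without control replicate 3 (-0.26, limma adjusted p = 0.158), without isoform replicate 1 (-0.32, limma adjusted p = 0.0535) or without isoform replicate 3 (-0.32, limma adjusted p = 0.0559). The mean of both knockdowns was -1.12 ± 0.09 from control (limma adjusted p = 1.49e-05), a comparison in which 25.7% of all probes were called lower and 23.5% higher.

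TAF6 fell after the WT siRNA at both of its probes. ILMN_2378708 read 7.22 and 7.27 in the controls, 5.67, 5.79 and 5.44 in the WT knockdown, and 7.07, 7.23 and 7.31 in the isoform knockdown. The isoform arrays spanned both controls, and the WT arrays stood apart from all others. The WT difference was -1.61 ± 0.12 (SE; limma adjusted p = 1.04e-05), leaving 32.7% of control, and the isoform difference was -0.04 ± 0.12 with a 95% interval of -0.32 to 0.24 (limma adjusted p = 0.827). ILMN_1668351, whose annotated transcript differs, read 7.01 and 7.01, then 5.01, 4.88 and 4.89, then 6.36, 6.75 and 6.63, and was detected on 1 of the 3 WT arrays. Here the isoform arrays also lay below both controls. The differences were -2.08 ± 0.12 for the WT siRNA (limma adjusted p = 2.5e-06) and -0.43 ± 0.12 for the isoform siRNA (limma adjusted p = 0.0201), the latter missing the threshold without control replicate 1 (-0.42, limma adjusted p = 0.0863) or control replicate 3 (-0.42, limma adjusted p = 0.0913). The TAF6 probes therefore disagree on whether the isoform siRNA lowered the gene. Averaged over both knockdowns, TAF6 was -0.83 ± 0.11 from control at the brighter probe (limma adjusted p = 0.000273) and -1.25 at the other (limma adjusted p = 2.65e-05). In the authors' deposited log2 table the WT differences were smaller, -1.06 and -1.23.

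AK6 fell after the WT siRNA and was close to control after the isoform siRNA. ILMN_1778617 read 8.39 and 8.40 in the controls, 6.93, 6.74 and 6.81 in the WT knockdown, and 8.23, 8.54 and 8.50 in the isoform knockdown. The isoform arrays lay on both sides of the controls. The WT difference was -1.57 ± 0.12 (SE; limma adjusted p = 8.38e-06), leaving 33.8% of control, and the isoform difference was 0.03 ± 0.12 with a 95% interval of -0.23 to 0.29 (limma adjusted p = 0.864). Over 18 alternatives the WT difference of this probe ran from -1.87 to -1.18, with -1.27 in the authors' deposited log2 table. The second probe, ILMN_2343332, had the same pattern, with a WT difference of -1.25 ± 0.10 (limma adjusted p = 1.47e-05) and an isoform difference of -0.01 ± 0.10 (95% interval -0.24 to 0.22; limma adjusted p = 0.97). Under median scaling the isoform differences of the AK6 probes were -0.24 and -0.27 and again did not pass. No probe is listed for TAF9, and whether the AK6 probes also bind transcripts of that gene was not tested. Over both knockdowns together, AK6 stood at -0.77 ± 0.10 from control (limma adjusted p = 0.000282), and -0.63 ± 0.09 at the second probe (limma adjusted p = 0.000455).

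DPH2 moved in opposite directions under the siRNAs at all 3 of its probes. The brightest, ILMN_2375418, read 9.76 and 9.75 in the controls, 8.46, 8.41 and 8.49 in the WT knockdown, and 10.19, 9.90 and 10.18 in the isoform knockdown. The groups did not overlap, with the controls lying between the knockdowns and nearer to the isoform arrays. The WT difference was -1.30 ± 0.11 (SE; limma adjusted p = 1.58e-05), leaving 40.6% of control, and the isoform difference was 0.34 ± 0.11 (limma adjusted p = 0.0324). That isoform rise missed the threshold in 6 of 18 alternatives, among them median scaling (0.05, limma adjusted p = 0.874), the fit of only the groups compared (limma adjusted p = 0.0563), and the fits without control replicate 1 (0.35, limma adjusted p = 0.115), control replicate 3 (0.33, limma adjusted p = 0.128), isoform replicate 1 (0.29, limma adjusted p = 0.0879) or isoform replicate 3 (0.29, limma adjusted p = 0.0911).

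The dimmer DPH2 probes gave a larger rise and a smaller fall. ILMN_1763162 read 6.71 and 6.62 in the controls, 5.94, 6.01 and 5.66 in the WT knockdown, and 7.59, 7.21 and 7.61 in the isoform knockdown. Its differences were -0.79 ± 0.15 (limma adjusted p = 0.0017) and 0.81 ± 0.15 (limma adjusted p = 0.00261), and the rise passed in 18 of 18 alternatives. ILMN_2276431 was detected on 2 of the 3 WT arrays and gave -0.72 ± 0.19 (limma adjusted p = 0.00955) and 0.64 ± 0.19 (limma adjusted p = 0.0216). Its rise missed the threshold without control replicate 1 (0.54, limma adjusted p = 0.128), control replicate 3 (0.75, limma adjusted p = 0.0546), isoform replicate 1 (0.58, limma adjusted p = 0.0585) or isoform replicate 3 (0.54, limma adjusted p = 0.0641), and its fall without control replicate 3 (-0.62, limma adjusted p = 0.076). The mean of both knockdowns was -0.48 ± 0.10 from control at the brightest probe (limma adjusted p = 0.00278), against 0.01 ± 0.13 (limma adjusted p = 0.977) and -0.04 ± 0.17 (limma adjusted p = 0.871) at the others, so the probes disagree on the balance between fall and rise. In the authors' deposited log2 table the WT falls at the dimmer probes were -0.50 and -0.37.

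CDK5RAP1 had the same order of groups as DPH2 at its brighter probe. ILMN_1711023 read 9.25 and 9.17 in the controls, 8.06, 8.13 and 8.07 in the WT knockdown, and 9.55, 9.64 and 9.48 in the isoform knockdown. The 3 groups were tight and did not overlap. The WT difference was -1.12 ± 0.09 (SE; limma adjusted p = 1.38e-05), leaving 46.1% of control, and the isoform difference was 0.35 ± 0.09 (limma adjusted p = 0.0132), a rise that missed the threshold under median scaling (0.08, limma adjusted p = 0.773) and without control replicate 3 (0.31, limma adjusted p = 0.0926). The dim probe ILMN_1812289 read 5.93 and 5.45 in the controls, where the controls differed from each other more than at any other member probe. It gave a WT difference of -0.59 ± 0.19 (limma adjusted p = 0.0271) that missed the threshold without control replicate 1 (-0.34, limma adjusted p = 0.231), WT replicate 2 (-0.59, limma adjusted p = 0.0573) or WT replicate 3 (-0.47, limma adjusted p = 0.0794), or with no filter on dim probes (limma adjusted p = 0.0548). In the authors' deposited log2 table the WT difference of this probe was -0.31. Its isoform arrays overlapped the controls at this probe (0.17 ± 0.19, limma adjusted p = 0.513). The mean of both knockdowns was -0.38 ± 0.08 from control at the brighter probe (limma adjusted p = 0.00357). At the dim probe it was -0.21 ± 0.17 and did not pass (limma adjusted p = 0.337).

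DTX3 was the exception, since the isoform siRNA accounted for most of its difference. Its single probe, ILMN_1658677, read 5.42 and 5.56 in the controls, 5.39, 5.38 and 5.06 in the WT knockdown, and 6.84, 6.62 and 6.82 in the isoform knockdown. The isoform arrays stood well above all others, and the highest WT array lay just under the lower control. The isoform difference was 1.27 ± 0.13 (SE; limma adjusted p = 0.000116), or 242% of control, and the WT difference was -0.21 ± 0.13 with a 95% interval of -0.50 to 0.08 (limma adjusted p = 0.194). Averaged over both knockdowns, DTX3 was 0.53 ± 0.11 from control (limma adjusted p = 0.00405). The probe was dim, with unnormalized intensities of 92.2 to 96.1 in the controls, 74.4 to 89.2 in the WT knockdown and 144.9 to 171.6 in the isoform knockdown, so its fold depended on background correction. In the authors' deposited log2 table the isoform difference was 0.77. The rise passed in 18 of 18 alternatives, which gave 0.67 to 1.35.

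**Figure D3:**
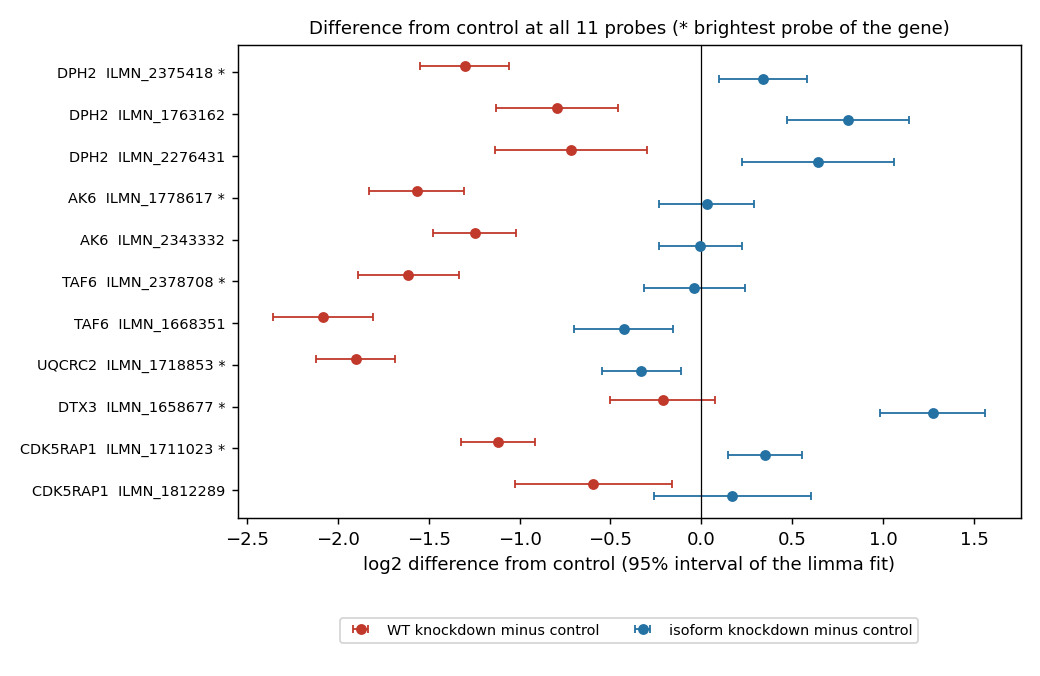
Log2 difference from control at all 11 probes of the 6 genes, with 95% intervals of the limma fit, for the WT knockdown (red) and the isoform knockdown (blue). All red points lie below 0, from -0.21 to -2.08, while the blue points lie on both sides of 0, from -0.43 to 1.27.

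Calls in opposite directions were uncommon over the array. Of all probes, 0.841% (189 of 22467) were called lower with one siRNA and higher with the other, and among the members 4 of 11 probes and 2 of 6 genes (DPH2 and CDK5RAP1) were. A choice by a large difference between the siRNAs favours such probes, so this share describes the members and tests nothing. Over the 2303 genes higher after the isoform siRNA, 877 (38.1%) were called lower after the WT siRNA alone, as AK6 and TAF6 were at their brightest probes, against 11.2% of all 12239 genes (10.6% of all probes were lower with it and not called with the isoform siRNA). Another 652 (28.3%, against 18.2% of all genes) were lower with both, as UQCRC2 was, and 49 (2.1%, against 0.4%) were lower with the WT and higher with the isoform siRNA. The 322 (14%, against 4.4%) called higher with the isoform siRNA alone include DTX3. These 2303 genes were themselves picked by the difference between the siRNAs, so the shares are a description. In 1661 of the 2303 (72.1%) the WT knockdown was the farther from control, against 61.6% of all genes, and it was the farther for 5 of the 6 chosen.

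Among the 6 genes the profiles over the 8 arrays were alike except for DTX3. With each gene centred on its own mean, the root mean square distance between pairs was 0.12 for AK6 and TAF6, the closest, and at most 0.33 for the 10 pairs without DTX3. The 5 pairs with DTX3 were 0.42 to 0.72 apart. The points share arrays and normalization, and the likeness follows in part from the choice. Among genes outside the chosen 6, the profile nearest to TAF6 and to UQCRC2 was that of SMARCA1 (0.13 for each), which was also the nearest of these to AK6 (0.16), with differences of -1.65 after the WT and -0.27 after the isoform siRNA. Again leaving the chosen genes aside, INO80C was nearest to DPH2 (0.17, with CDK5RAP1 itself at 0.15) and PDGFRL to CDK5RAP1 (0.12). KYNU and DIO2 were nearest to DTX3 (0.17 for each), at 1.24 and 1.39 after the isoform siRNA and -0.02 and 0.05 after the WT siRNA. The next in likeness outside the 6, at distances up to 0.19, were AVL9 and RAB5C for DPH2, INO80C and RAB5C for AK6, RAB5C and OSBPL10 for TAF6, SMCO4 and GNG12 for UQCRC2, MR1 for DTX3, and HEG1 and INO80C for CDK5RAP1.

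The functional partners of the 6 genes did not move as a block with them. Their difference between the knockdowns played no part in the choice of members and was tested. The lists were chosen with earlier results of these data known, and they count genes by brightest probe. For the counts against control, 24.5% of all probes were higher and 27.0% lower (WT), and 19.1% and 21.0% (isoform). Under median scaling these were 2849 and 7765 of 22467 probes (WT), and 2103 and 5753 (isoform). Between the knockdowns, the background was 17.3% of probes called higher and 15.6% lower after the isoform siRNA. In diphthamide synthesis, 0 of 7 measured partners of DPH2 were higher and 2 were lower, DPH5 (-0.33 ± 0.08, limma adjusted p = 0.0118) and DPH7 (-0.37 ± 0.11, limma adjusted p = 0.0289), enzymes of the later steps, and neither passed under median scaling. The median of the 7 was -0.21, against 0.02 over all probes. At an unadjusted p under 0.05 the counts were again 0 higher and 2 lower. DPH1, the partner of DPH2 in the same step, differed by -0.21 ± 0.16 and did not pass. Against control, 3 of the 7 rose and 2 fell after the WT siRNA (1 and 2 under median scaling), and 0 rose and 2, DPH6 and DNAJC24, fell after the isoform siRNA.

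Of 5 measured nucleotide kinases other than AK6, 2 were higher after the isoform than after the WT siRNA and 0 lower by limma (2 and 2 at an unadjusted p under 0.05), with a median of 0.03. AK1, the cytosolic adenylate kinase, differed by 0.72 ± 0.09 (limma adjusted p = 0.000409), having fallen after the WT siRNA by 0.87 on the log2 scale (limma adjusted p = 0.000105). Mitochondrial AK4 differed by 0.61 ± 0.08 (limma adjusted p = 0.00055), having risen after the isoform siRNA by 0.46 (limma adjusted p = 0.00351). Both differences between the knockdowns passed under median scaling too, where the rise of AK4 from control did not (0.17, limma adjusted p = 0.511). Against control, 1 of the 5 rose and 3 fell after the WT siRNA (0 and 4 under median scaling, where AK4 was called lower at -0.50), and 1 rose and 2 fell after the isoform siRNA (0 and 2).

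Around TAF6, 1 of 17 other TFIID and related subunits was higher after the isoform siRNA and 3 were lower, with a median of 0.00. TAF7, a regulator of TAF1, went the other way from TAF6, rising by 1.23 after the WT siRNA (limma adjusted p = 1.04e-05) and by 0.42 after the isoform siRNA (limma adjusted p = 0.00718, and 0.595 under median scaling), a difference of -0.82 ± 0.08 (limma adjusted p = 0.000147). TAF5, a scaffold subunit, differed by -0.51 ± 0.09 (limma adjusted p = 0.00191) and TAF4B by -0.30 ± 0.09 (limma adjusted p = 0.0337), while TAF10 differed by 0.30 ± 0.07 (limma adjusted p = 0.0128). Of these, TAF4B and TAF10 did not pass under median scaling. Against control, 7 of the 17 rose and 4 fell after the WT siRNA (3 and 6 under median scaling), and 5 rose and 2 fell after the isoform siRNA (2 and 3). TAF13 was among those that rose with both, by 1.37 and 1.40.

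Complex III gave a mixed picture around UQCRC2, with 3 of 13 other subunits and assembly factors higher after the isoform siRNA, 2 lower and a median of -0.03. The assembly factors UQCC2 (0.49 ± 0.11, limma adjusted p = 0.00726), UQCC3 (0.49 ± 0.09, limma adjusted p = 0.00304) and LYRM7 (0.43 ± 0.10, limma adjusted p = 0.00912) were the higher ones, and each had fallen after the WT siRNA, by 0.99, 0.54 and 0.69 on the log2 scale. UQCRC1, the partner of UQCRC2 in the core, had the opposite sign. It rose by 0.55 after the WT siRNA (limma adjusted p = 0.000962) and differed between the knockdowns by -0.53 ± 0.08 (limma adjusted p = 0.00137), a difference that passed under median scaling, where the rise from control did not (0.19, limma adjusted p = 0.439). Against control, 3 of the 13 rose and 4 fell after the WT siRNA (0 and 5 under median scaling), and 3 rose and 3 fell after the isoform siRNA (1 and 4). UQCRB differed by -0.29 ± 0.08 (limma adjusted p = 0.0189), and this did not pass under median scaling.

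Of the Deltex family, DTX2 and DTX3L were measured besides DTX3, and with PARP9, the partner of DTX3L, 0 of these 3 genes passed between the knockdowns by limma. At an unadjusted p under 0.05, 1 was higher and 1 lower, DTX2 (0.32 ± 0.11, limma adjusted p = 0.0503) and DTX3L (-0.27 ± 0.10, limma adjusted p = 0.0708). Against control, 2 rose and 1 fell after the WT siRNA (1 and 1 under median scaling), and 2 rose and 0 fell after the isoform siRNA (0 and 1). PARP9 was called higher with both siRNAs, by 0.47 and 0.50, and with neither under median scaling (0.26, limma adjusted p = 0.252, and 0.37, limma adjusted p = 0.115).

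Around CDK5RAP1, 2 of 14 genes of CDK5 and tRNA modification were higher after the isoform siRNA and 6 lower, with a median of 0.01. CDK5RAP2, a centrosomal protein also named for binding the CDK5 activator, had the direction of CDK5RAP1, at -0.61 after the WT siRNA (limma adjusted p = 0.00113) and 0.39 after the isoform siRNA (limma adjusted p = 0.0166; 0.12, limma adjusted p = 0.647, under median scaling), a difference of 1.00 ± 0.10 (limma adjusted p = 9.43e-05). CDKAL1, which makes the related methylthio mark on a cytosolic tRNA, differed by 0.69 ± 0.11 (limma adjusted p = 0.00142) after falls with both siRNAs. TRIT1, which adds an isopentenyl group to the adenosine that CDK5RAP1 modifies, differed by -0.32 ± 0.10 (limma adjusted p = 0.0353). The other lower genes were CDK5R1, which encodes the CDK5 activator (-0.55 ± 0.08), MTO1 (-0.60 ± 0.09) and TRMU (-0.36 ± 0.10) of wobble base modification, and QTRT2 (-0.86 ± 0.12) and QTRT1 (-0.43 ± 0.15), the subunits of the enzyme that inserts queuine. Of these 8 genes, TRIT1, TRMU and QTRT1 did not pass under median scaling, where NSUN3 did (0.44, limma adjusted p = 0.0474), which makes the split 3 higher and 3 lower. Against control, 5 of the 14 rose and 3 fell after the WT siRNA (4 and 3 under median scaling), and 7 rose and 3 fell after the isoform siRNA (3 and 3).

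**Figure D4:**
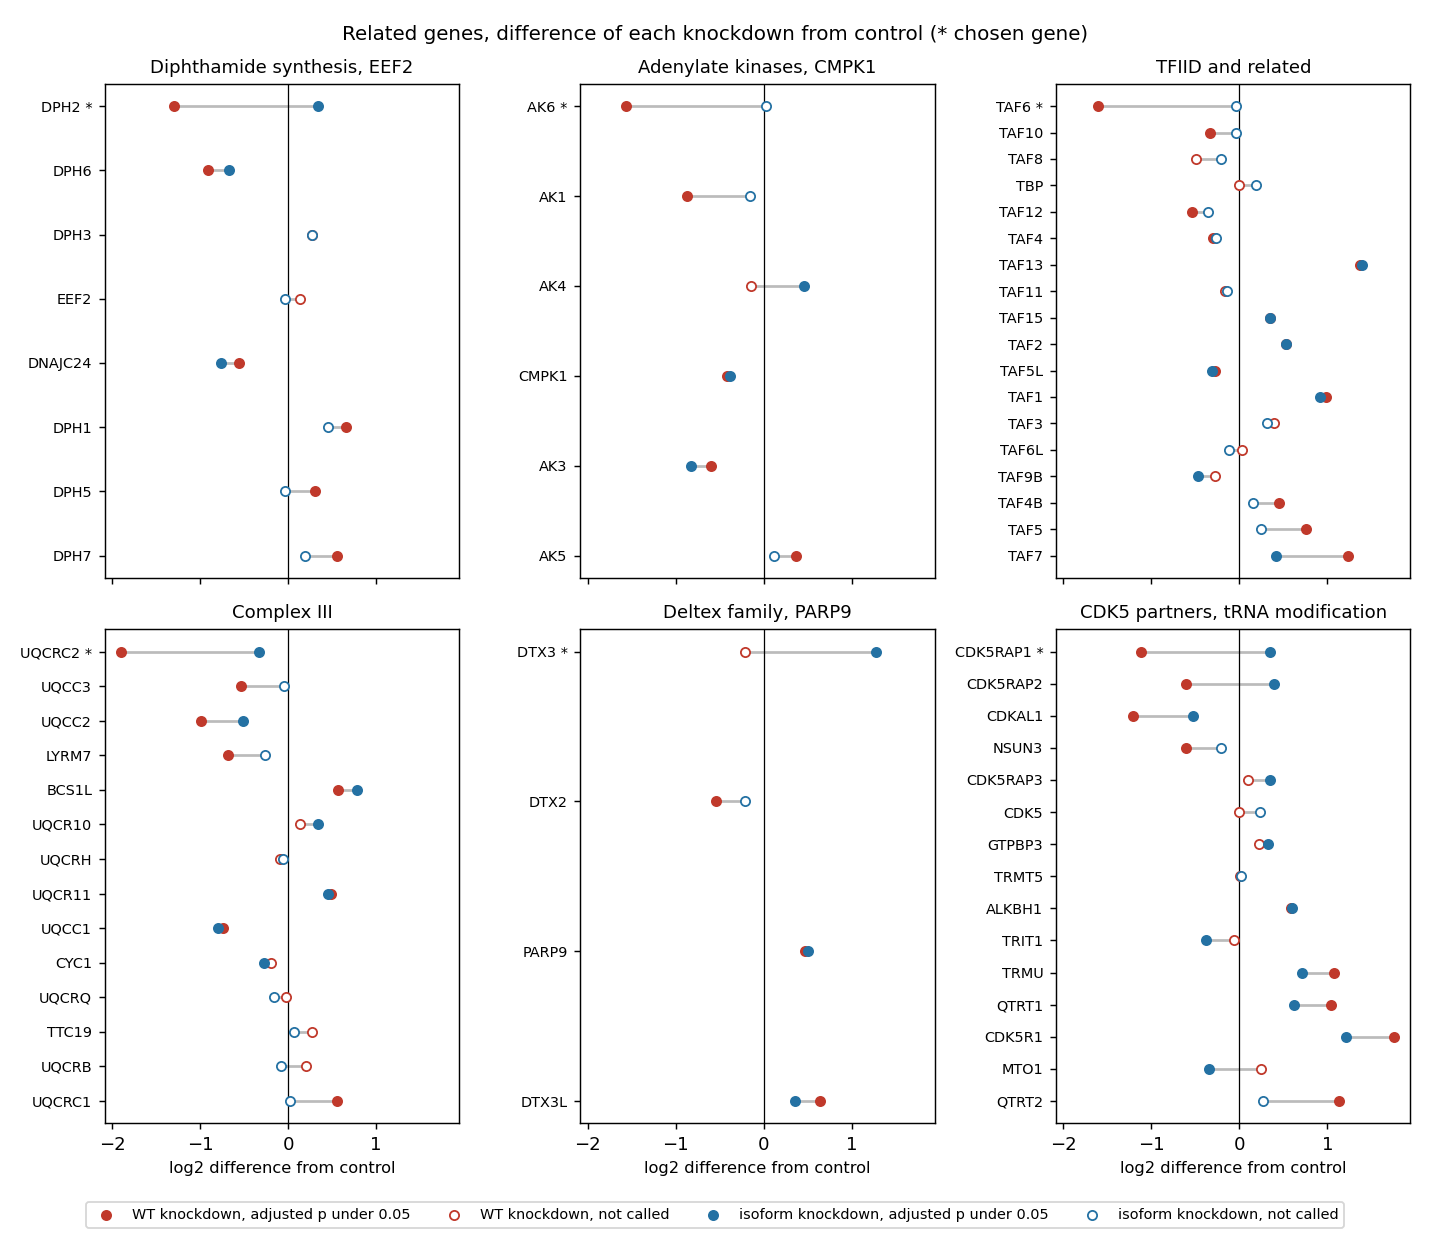
Log2 difference from control in the WT knockdown (red) and the isoform knockdown (blue) for the measured genes of each member's pathway or family, sorted by the difference between the knockdowns, with filled points for limma adjusted p under 0.05 and an asterisk on the chosen gene. The blue point lies to the right of the red by 1.47 or more for each chosen gene, while for the other genes the difference runs from -0.86 to 1.00.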

How the data were processed

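RNA from 9 samples was measured on Illumina BeadChip arrays. Per the file headers, the deposited signal table gives 47231 probes a mean intensity and a detection p-value on each array, with no normalization apparent. The authors also deposited log2 values, apparently after quantile normalization. Per the submitters' processing notes R 3.1.0 was among the tools, with its role not given in the sources used here.

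Control replicate 2 equalled the mean of controls 1 and 3 in signal (tolerance 1e-06) and detection p-value (tolerance 1e-05) and was left out, so 8 of 9 arrays were fitted. The knockdown signals stood in another row order than their probe IDs: their rank correlation with the authors' log2 values was -0.00219 to 0.000506, against 1 for the controls. Each of the 47231 rows matched exactly 1 probe of that table and was put back, so the identity of every knockdown value rests on the log2 table.

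Signals were corrected by normexp with detection p-values (offset 16), then quantile normalized on the log2 scale, with neqc of limma 3.58.1 (R 4.3.3). Probes detected at p under 0.05 on at least 3 of the 9 columns were kept, 22467 in all. Of all probes, 30113 had 1 symbol in the platform annotation, 8 had several and 17110 had none. A gene's level is that of its brightest probe, and levels of different probes were not compared. All groups were fitted together (lmFit, contrasts.fit and eBayes, with 5 residual degrees of freedom and 4.33 from the prior), and p-values were adjusted by Benjamini-Hochberg over all kept probes in each comparison, at a threshold of 0.05. On the log2 scale the SD of the median probe was 0.0851 for controls, 0.124 for WT arrays and 0.117 for isoform arrays, and the number of arrays limits the precision. The fit was also run on simulated data, made after normalization with few changed probes, so that run says nothing about the choice of normalization.

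The members, the lists of related genes and markers and the alternatives were chosen with earlier results of these data known. Named genes are the members with all their probes, MTDH, the neighbours of the members in the ranking, the 3 genes, other members left out, with the smallest root mean square distance to each member's centred profile, and the list genes past the threshold between the knockdowns (for Deltex, those of smallest adjusted p); TAF13, PARP9, DPH1, DPH6, DNAJC24 and NSUN3 were added after their values were seen. Promoters came from RefSeq, where 5 of 6 genes had an entry. Alternatives covered background correction, scaling, filters, variance models, the authors' log2 values, control replicate 2, a replicate block and leaving out each array.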

Additional observations from a re-analysis of the deposited data

How the results depend on the processing

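Over 18 alternatives (17 for the mean of both knockdowns, for which a fit of only the groups compared was not run), 5 member genes were called lower and 0 higher after the WT siRNA in every one, and 5 lower and 1 higher for the mean of both knockdowns. In the main fit, 27.0% of all probes were called lower and 24.5% higher after the WT siRNA, and 25.7% and 23.5% for the mean. The alternatives reuse the same arrays and genes chosen for a low WT relative to isoform level, so these counts describe the members. The isoform comparison was less stable. Its 3 genes called higher became 1 under median scaling and 1 to 3 with an array left out (1 without control replicate 3), and its 1 gene called lower became 0 to 1 (0 without control replicate 3, isoform replicate 1 or isoform replicate 3). Fewer arrays entered those fits, and the cause of the change under median scaling was not tested. The count of probes past the threshold in the isoform comparison was 9001, and 5857 to 9211 with an array left out, lowest without control replicate 1 (5857) and control replicate 3 (5897). Between the knockdowns it was 7399, against 4920 under median scaling (3045 higher and 1875 lower, in place of 3887 and 3512). For the mean of both knockdowns median scaling gave 2741 higher and 7460 lower, in place of 5285 and 5783. No difference of a member probe past the threshold changed direction.

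With the replicate number as a block, 10929 probes passed in the WT comparison, 7970 in the isoform comparison, 10200 for the mean of both and 6836 between the knockdowns, and the counts of member genes did not change. The residuals of same-numbered samples correlated at -0.03 to 0.06, so no strong pairing by number was visible. Residuals around the mean of so few arrays are tied to each other, so a weak pairing cannot be judged from them. Dim probes limit the fold changes: with intensities near background, the DTX3 difference between the knockdowns was 1.49, against 0.88 in the authors' deposited log2 table, and that of TAF6 was 1.57 against 1.03. With 2 controls, any error shared by them enters every comparison with control.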
